A study of Homo sapiens with 3 samples.

Results

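Some peaks of XPB and XPD overlapped in the ChIP-seq lists of these proteins while their summits lay apart, and such pairs of peaks are described here. A pair was an XPB peak and an XPD peak that were each other's largest overlap in bp. It was called displaced when the summits, the points of highest fragment pileup, were more than 250 bp apart. The pairs were thus chosen by the measured overlap and summit distance, and both are given as a description only. Of 5536 such mutual pairs, 1744 were displaced (31.5%, exact 95% interval 30.3 to 32.7). They took in 8.09% of the 21555 XPB peaks and 11.97% of the 14570 XPD peaks. The set compared with them was the 2804 coincident pairs (50.7%), with summits at most 100 bp apart. The remaining 988 pairs lay in between.

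The cells were HT1080, a human line established from a fibrosarcoma, grown in serum-containing medium with no further treatment named. Rabbit polyclonal antibodies from different vendors were used for XPB and XPD. There was 1 library for each antibody, so no difference between the antibodies has a replicate check and no p-value is given. Intervals on shares and medians cover counting error only. The lists do not give sequencing depth, and heights were not read as absolute levels between them.

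XPB and XPD are the helicase-fold subunits of TFIIH, a complex that works both in transcription and in nucleotide excision repair. At promoters XPB, a DNA translocase, drives the opening of DNA for RNA polymerase II, while the helicase activity of XPD is not required there. In repair XPD unwinds DNA and takes part in checking the damaged strand. Within TFIIH the proteins sit in a shared core, and XPD also contacts the kinase module of the complex. A ChIP summit marks where crosslinked fragments pile up highest, and it is read no more finely than the fragments allow, which were selected at 400 to 700 bp.

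The pair with the highest lower summit shows the shape that a displacement can take, with coordinates in hg19. On chromosome 12 the XPB peak ran from 120728293 to 120731380 with a summit of 46 fragments at 120731025. Its XPD partner ran from 120728301 to 120730279 with a summit of 60 fragments at 120729635, which was 1390 bp away. A further XPD peak lay over the same XPB peak, from 120730286 to 120731400, with a summit of 63 fragments 9 bp from the XPB summit. The XPB list thus held 1 interval where the XPD list held 2, and the XPB summit coincided with the summit of the XPD peak that was not its partner.

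On chromosome 21 the XPB peak from 11143471 to 11146208 had 44 fragments at its summit and the XPD peak from 11143383 to 11147039 had 41. The summits were 2063 bp apart, although each lay inside the other peak. A further XPB peak with 32 fragments overlapped the XPD peak, but its summit was 2854 bp from that of XPD. On chromosome 4 the intervals were almost the same, 52675 to 55357 for XPB and 52747 to 55419 for XPD, and overlapped by 97.3% of the wider. The summits, with 29 and 27 fragments, were 1504 bp apart within them.

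Several tall pairs were displaced over shorter distances. A pair on chromosome 1, with XPB from 17231067 to 17232467 (35 fragments) and XPD from 17231068 to 17232296 (37), had the XPD summit 346 bp on the lower side. A second pair on chromosome 1, with XPB from 45195889 to 45197448 (36 fragments) and XPD from 45196091 to 45197390 (34), had it 383 bp on the higher side. On chromosome 6, the XPB peak from 26123066 to 26125038 (34 fragments) and the XPD peak from 26122897 to 26124834 (30) had summits 432 bp apart. These pairs had similar intervals and heights, and the summits pointed in either direction along the chromosome.

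A second pair on chromosome 6 had XPB from 27774710 to 27776589 (29 fragments) and XPD from 27774635 to 27776383 (46), with summits 386 bp apart. On chromosome 15, XPB from 74691806 to 74693248 (27 fragments) and XPD from 74691866 to 74694378 (28) had summits 1329 bp apart. There a further XPB peak, with 19 fragments, had its summit 78 bp from the XPD summit. This pair also had the highest lower score of all displaced pairs, 1232 for XPB and 1620 for XPD, where the score, from the peak caller, is its p-value as a log10 multiplied by -10.

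**Figure D1:**
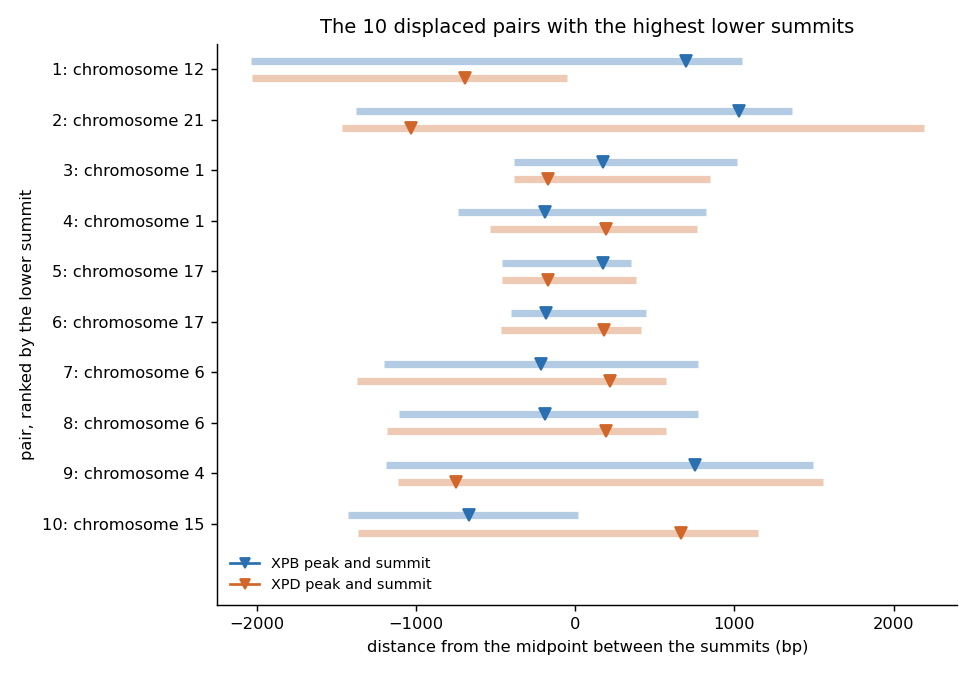
Each row is 1 of the 10 displaced pairs with the highest lower summits, drawn in bp from the midpoint between the summits; bars are the peak intervals and triangles the summits, XPB above in blue and XPD below in orange. Pair 1, on chromosome 12, and pair 10, on chromosome 15, have a summit outside the partner peak, and in the other 8 both summits lie in both intervals.

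Narrow pairs could be displaced as well. In 313 of the displaced pairs (17.95%) both peaks were under 1000 bp wide. The share was higher in coincident pairs, at 1170 of 2804 (41.7%). The tallest of the narrow displaced pairs lay on chromosome 17. There XPB ran from 56708863 to 56709674 with 31 fragments and XPD from 56708862 to 56709705 with 40. These intervals shared 96.2% of the wider peak, no other peak had its summit within 10 kb, and the summits were 345 bp apart. The second, also on chromosome 17, had XPB from 25416017 to 25416865 (36 fragments) and XPD from 25415955 to 25416836 (31), with summits 366 bp apart.

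The next narrow pairs were displaced by 314, 259 and 265 bp. They lay on chromosome 12 with XPB from 104322901 to 104323772 (21 fragments for XPB and 23 for XPD), on chromosome 10 with XPB from 65028548 to 65029211 (29 and 20), and on chromosome 3 with XPB from 111577426 to 111578264 (21 and 18). In these 5 narrow pairs the intervals shared 84.5 to 97.5% of the wider peak, so that the lists gave the same region and differed in where its top was.

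The distances themselves, which defined the set, had a median of 489 bp (interquartile range 347 to 711) and reached 2965 bp. Of the displaced pairs, 633 (36.3%) lay up to 400 bp apart, 654 (37.5%) lay over 400 and up to 700 bp apart, and 457 (26.2%) lay beyond 700 bp, the upper end of the selected fragment length. Those over 1000 bp apart numbered 174 (9.98%, 8.61 to 11.5). At the threshold the pairs were much alike: the 60 pairs in the last 10 bp below it had median heights of 10.5 fragments for XPB and 13 for XPD, and the 44 pairs in the first 10 bp above it had 11.5 and 14. The highest-scoring just over it, on chromosome 2 with XPB from 101592383 to 101594407 (23 and 15 fragments), was 252 bp apart. The highest-scoring just under it, on chromosome 3 with XPB from 195622821 to 195624683 (29 and 15), was at 250 bp.

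The XPD summit lay above the XPB summit along the chromosome about as often as below it. The XPD summit was at the higher coordinate in 866 displaced pairs and at the lower in 878, a share of 49.7% (47.3 to 52.0). The share was 53.6% (49.6 to 57.5) up to 400 bp, 47.2% (43.4 to 51.2) up to 700 bp, 44.2% (38.3 to 50.2) up to 1000 bp and 53.4% (45.8 to 61.0) beyond. Each of these intervals included 50%. Coordinates carry no direction of transcription, and no gene annotation of this build was used, so an offset along genes was not tested.

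**Figure D2:**
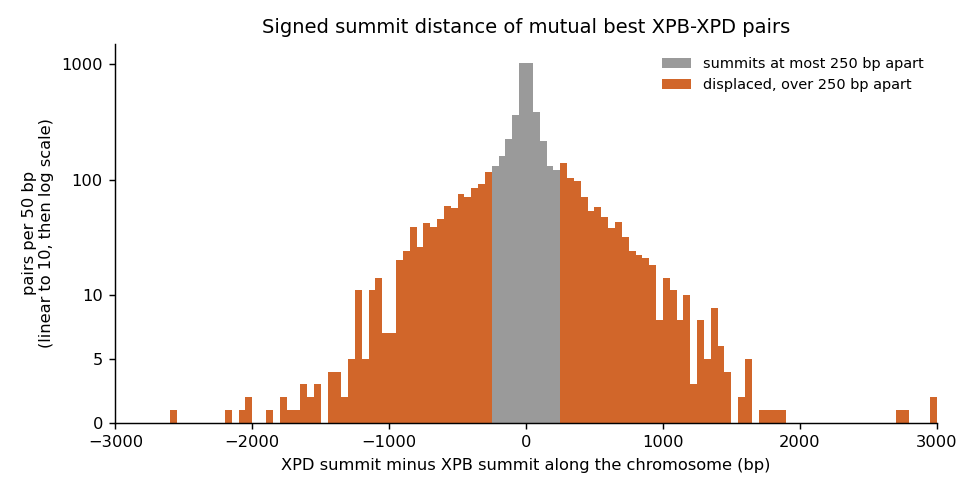
The number of mutual pairs in each 50 bp of signed distance (XPD summit minus XPB summit, in bp), on a scale that is linear to 10 and logarithmic above; displaced pairs are orange and the others grey. The 2 sides are near mirror images, with 866 displaced pairs to the right and 878 to the left, and the tails end at 2965 bp on the right and -2576 bp on the left.

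How the peaks lay on each other fell into a few arrangements. In 1040 displaced pairs (59.6%) both summits lay inside both peaks, with a median distance of 385.5 bp. In 574 pairs 1 summit lay outside the partner peak: that of XPB in 220 (12.6%, 11.1 to 14.3) and that of XPD in 354 (20.3%, 18.4 to 22.3). The XPD peak was the wider in 58.7% of displaced and 58.0% of coincident pairs. Whether width accounts for the unequal numbers was not tested. In 130 displaced pairs (7.45%) each summit lay outside the other peak. These side-by-side pairs overlapped by a median of 22.1% of the wider peak and were a median of 883 bp apart, and none of their summits was above 20 fragments. An example is the pair on chromosome 3 with XPB from 125134265 to 125136132 (10 fragments) and XPD from 125136021 to 125137919 (18), which shared 112 bp and had summits 2769 bp apart. In all 2804 coincident pairs both summits lay in both peaks.

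A peak that was whole in one list and divided in the other was found at some of the displaced pairs. In 165 (9.46%, 8.13 to 10.9) at least 1 further peak of the other list overlapped the pair. The share was 7.97% in coincident pairs of equal span, and it stood at 9.04% for the displaced pairs compared with them. In 50 displaced pairs (2.87% of all, and 30.3% of those 165) a summit that was not the partner's lay within 100 bp. Without these 50, 1694 pairs remained displaced.

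Of the 5 pairs with the largest distances, 3 had a summit of a non-partner peak within 100 bp. On chromosome 5, XPB from 1171462 to 1175093 (20 fragments) and XPD from 1172420 to 1176006 (17) had summits 2718 bp apart, and a further XPD peak had its summit 19 bp from that of XPB. On chromosome 3, XPB from 195636749 to 195638324 (10 fragments) and XPD from 195636781 to 195640128 (12) were 2958 bp apart, with a further XPB summit 47 bp from the XPD summit.

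The third was on chromosome 2, where XPB from 91802301 to 91807585 (27 fragments) and XPD from 91802234 to 91805217 (24) were 2576 bp apart and a further XPD summit lay 72 bp from that of XPB. The pair with the largest distance, 2965 bp, was also on chromosome 2, with XPB from 91759620 to 91762738 (16 fragments) and XPD from 91759622 to 91764313 (25). Its further XPB peak had a summit 891 bp from that of XPD, so that no summit pair coincided there.

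Displaced pairs were wider than coincident ones, which the way they were chosen favours, since a wide interval leaves room for distant summits. For XPB the median width was 1068 bp (863 to 1405) against 907 bp, and for XPD 1170.5 bp (944.5 to 1490) against 960 bp. The union span, from the first to the last base of either peak, had a median of 1450 bp against 1127 bp. Of the displaced pairs, 212 (12.2%, 10.7 to 13.8) held a peak of 2000 bp or more, compared with 147 of the coincident pairs (5.24%).

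To hold width equal, coincident pairs were weighted to the displaced pairs' distribution over 250 bp bins of union span, which covered 1736 displaced pairs and left out 8 with spans of 4016 to 8944 bp. The share with a wide peak was then 11.7% for displaced and 13.6% for coincident pairs, a difference of -1.87 percentage points (-3.35 to -0.263). Without weighting the difference was 6.91 points, and with the mean peak width held equal in place of the span it was 0.790. At equal span the single peaks were a little narrower in displaced pairs. The median was 1066.5 bp against 1133 bp for XPB and 1168.5 bp against 1192 bp for XPD. The summit distance that chose the pairs is not independent of how the intervals lie within an equal span. These widths and the share of wide peaks are therefore a description only.

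Height and score, which the choice of pairs did not use directly, were lower at displaced than at coincident summits of equal span. They are not independent of the summit distance, however. Over all mutual pairs the median distance was 277 bp where the lower summit had 6 to 9 fragments and 10.5 bp at 31 or more. By lower score it was 125 bp at 150 to 200 and 25 bp at 500 or more. These comparisons are therefore a description only. The XPB summit had a median of 11 fragments (interquartile range 10 to 14) in displaced pairs and 15 (12 to 21) in coincident pairs, a ratio of 0.733 (0.733 to 0.800). The XPD summit had 12 (11 to 15) and 16 (13 to 21), a ratio of 0.750 (0.750 to 0.812). The lower of the summits was 12 fragments or less in 75.1% of displaced pairs and in 38.3% of coincident ones.

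The upper ends were far apart. Both summits reached 20 fragments in 2.19% of displaced and 19.6% of coincident pairs. The tallest displaced XPB summit had 57 fragments and the tallest XPD summit 62, whereas coincident summits reached 3531 and 2583. Of the 158 pairs with both summits at 31 fragments or more, 6 were displaced (3.797%, 1.41 to 8.08) and 148 were coincident (93.7%).

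Median scores at equal span were 241.9 in displaced and 332.7 in coincident pairs for XPB, a ratio of 0.727 (0.705 to 0.750). For XPD they were 210.6 and 264.9, a ratio of 0.795 (0.780 to 0.817). Both scores reached 300 in 13.7% of displaced and 33.1% of coincident pairs. When the lower summit height was held equal along with the span, a comparison added after the data were seen, the ratios were 0.961 (0.928 to 0.992) for XPB and 0.974 (0.955 to 1.002) for XPD. The lower height was held in classes only, and the taller summit was not held equal. The comparison left out 26 displaced pairs that had no coincident pair in their class. Displaced and coincident pairs of the same class of span and lower height thus differed little in score, although the XPB interval did not reach equality.

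**Figure D3:**
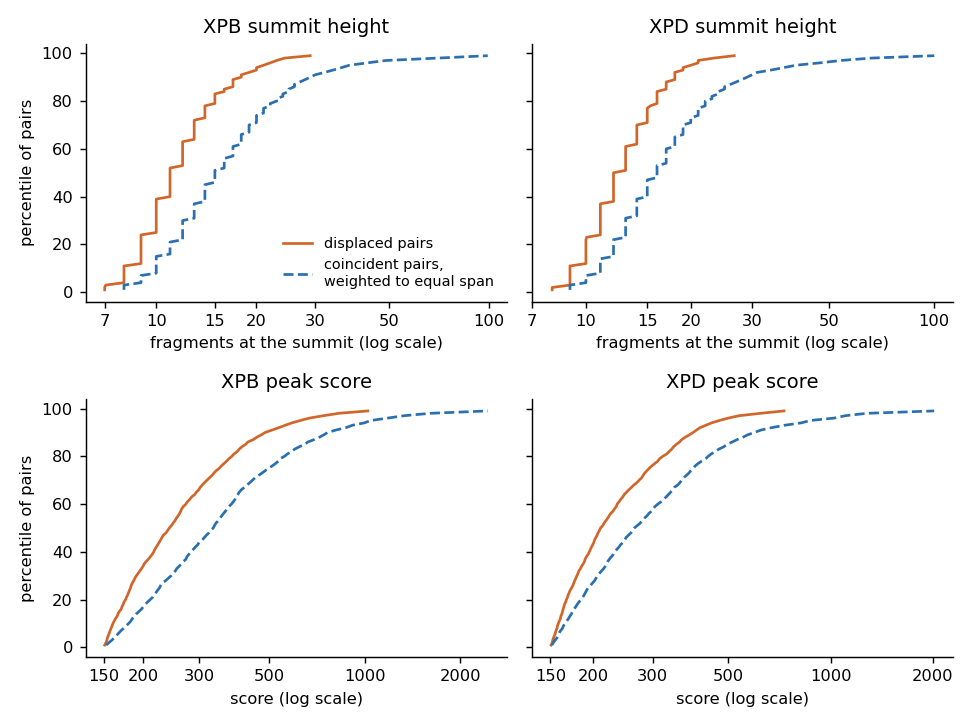
Percentiles 1 to 99 of summit height (fragments) and peak score, on log axes, for displaced pairs (solid) and for coincident pairs weighted to equal span (dashed). In each panel the displaced pairs lie to the left, with medians of 11 against 15 fragments for XPB and 12 against 16 for XPD.

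The share of pairs that were displaced fell with height in each step. It was 53.6% (50.4 to 56.7) where the lower summit had 6 to 9 fragments, 38.4% at 10 to 12, 23.8% at 13 to 15, 14.2% at 16 to 20 and 8.26% (5.603 to 11.7) at 21 to 30. The same order held inside each class of span. Among pairs spanning 1000 bp or less it went from 29.8% (23.1 to 37.3) at 6 to 9 fragments to 1.74% (0.361 to 5.01) at 21 or more, and among those over 2000 bp from 79.8% (70.2 to 87.4) to 23.8% (15.2 to 34.4). With span the share rose: it was 12.6% in pairs of 1000 bp or less, 32.2% up to 1500 bp, 46.0% up to 2000 bp and 56.5% beyond. The span contains both summits, so the choice of pairs by summit distance favours this rise, and it is a description only.

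**Figure D4:**
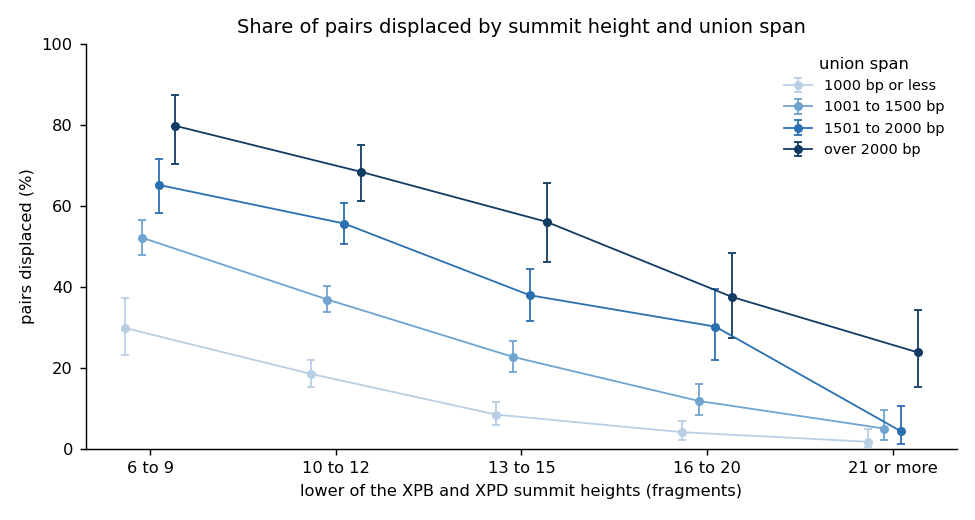
Percent of mutual pairs displaced, by the lower summit height (fragments) and by the union span of the pair (shades of blue), with exact 95% intervals. The share falls from left to right in each span class, from 29.8 to 1.74% in the narrowest and from 79.8 to 23.8% in the widest.

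Score went different ways alone and beside height. Over all pairs the displaced share fell from 35.7% (33.9 to 37.5) where the lower score was 150 to 200 to 15.02% (11.1 to 19.6) at 500 or more. Within pairs of 13 to 15 fragments it rose, from 17.02% (13.7 to 20.7) at scores of 150 to 200 to 25.3% at 200 to 300 and 34.6% (28.5 to 41.2) at 300 or more. In these same classes the median span went from 990 to 1206.5 and 1647.5 bp. Pairs of 16 to 20 fragments went the same way, from 7.21% to 12.98% and 20.5%, with median spans of 875, 1073 and 1406.5 bp. At 6 to 9 fragments it rose as well, from 52.5% to 56.2% and 80% (12 of 15 pairs). In the remaining height classes the middle score class was lowest: at 10 to 12 fragments the shares were 37.9, 36.4 and 54.4%, and at 21 or more 4.76, 2.33 and 8.14%.

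Among the strongest by score, 44 displaced pairs had both scores at 500 or more. After the pair on chromosome 15, the highest lower scores were on chromosome 11 with XPB from 65678511 to 65679969 (22 fragments, score 1193) and XPD from 65678345 to 65681356 (20, 1209), 360 bp apart. They were followed by the pair on chromosome 5 already described and by a pair on chromosome 11 with XPB from 75272713 to 75275591 (27 fragments, 1563) and XPD from 75272938 to 75275599 (18, 1120), 595 bp apart. The fifth was on chromosome 3, with XPB from 156845114 to 156848817 (24 fragments, 1450) and XPD from 156845915 to 156849081 (27, 1020), and 2159 bp apart. In these 5 pairs the wider peak measured from 2513 to 3704 bp.

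The balance of height between the lists was much the same in displaced and other pairs. On the log2 scale the median of XPD over XPB height was 0.13 in displaced pairs, 0.09 in coincident pairs and 0.11 in all. A ratio more than 2-fold from the median of all pairs was found in 43 displaced pairs (2.47%, 1.79 to 3.31), where the background over all mutual pairs was 2.01%. The share in displaced pairs was thus near the background.

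Of the 42 displaced pairs with both heights at 20 or more, the most uneven was on chromosome 15, with XPB from 65596655 to 65598224 (48 fragments) and XPD from 65595569 to 65597631 (23), 350 bp apart. Its log2 ratio was -1.17 from the median (counting interval -1.95 to -0.42). The next toward XPB were on chromosome 21, with XPB from 11137961 to 11140062 (30 and 20 fragments, -0.69, -1.59 to 0.17), and on chromosome 3, with XPB from 138581675 to 138582585 (32 and 22, -0.65, -1.50 to 0.18). Toward XPD the farthest was the second pair on chromosome 6, at 0.56 (-0.14 to 1.28), followed by 2 on chromosome 2 at 0.43 and 0.34. Apart from the pair on chromosome 15, these intervals included 0.

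The position of summits within their own peaks depends on the distance that chose the pairs, and it is given as a description. The XPB summit was nearer to an end than to the centre of its peak in 36.0% of displaced pairs, against 24.5% of coincident pairs at equal span, and the XPD summit in 36.0% against 23.7%. The lists contributed alike to this. In 1342 displaced pairs (76.9%) the summits fell on opposite sides of the middle of the union, which that distance favours too.

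Displaced pairs occurred on all 22 autosomes, and chromosome 3 held the most. It had 308 of them, 17.7% of the displaced pairs against 13.1% of all mutual pairs. Of its pairs 42.4% (38.7 to 46.0) were displaced, compared with 29.9% (28.6 to 31.2) on all other chromosomes together. The lowest autosomal share was 12.1% (6.42 to 20.2) on chromosome 4, and the other autosomes ran from 21.4% on chromosome 14 to 38.1% on chromosome 22. Chromosome X had 1 displaced pair of 13, and chromosome Y 0 of 3.

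Pairs on chromosome 3 had wider spans than elsewhere, with a median of 1375 against 1202 bp, and the same median lower height of 12 fragments. At the shares found elsewhere for the same span and height, 35.8% of its pairs would have been displaced. Its observed share of 42.4% lay above that, and the interval did not include it. On chromosome 4 the corresponding value was 21.1%, and the interval did not include it either. In the other 20 autosomes the value fell inside the interval. These intervals treat pairs as independent. On chromosome 3, however, 342 of the 727 pairs lay close together, in windows of 1 Mb with 15 or more pairs.

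**Figure D5:**
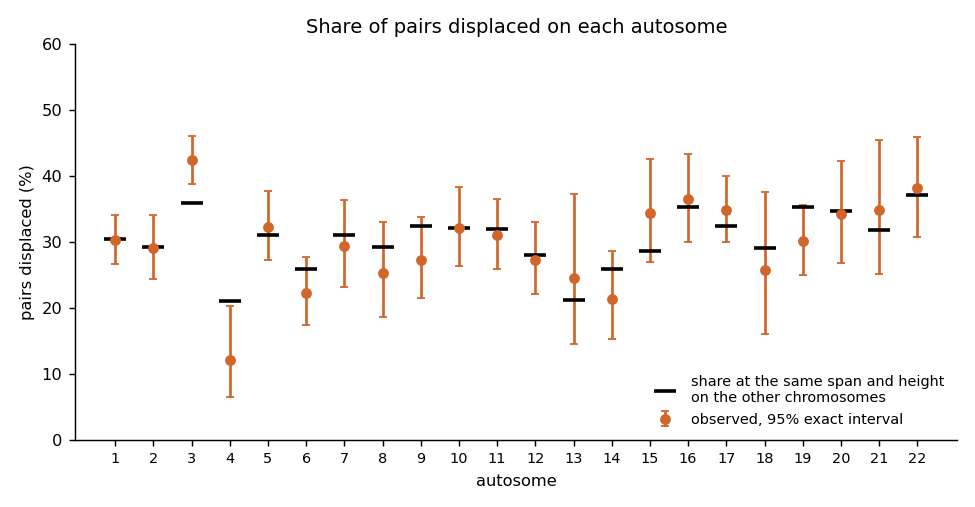
Percent of mutual pairs displaced on each autosome, with exact 95% intervals (orange), and the percent found on all other chromosomes at the same span and summit height (black bars). Chromosome 3, at 42.4%, lies above its bar of 35.8%, and chromosome 4, at 12.1%, lies below its bar of 21.1%.

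Neighbouring peaks moved with the share. Where no other peak of either list had its summit within 10 kb, 26.0% (24.2 to 27.9) of pairs were displaced, and where 7 or more did, 42.7% (36.5 to 49.2), with median spans of 1135 and 1533 bp. On chromosome 3, 74.1% of pairs had such a neighbour. Pairs there with a neighbour were displaced in 46.7% of cases (42.5 to 51.1), against 32.9% (31.1 to 34.6) elsewhere, and pairs without one in 29.8% (23.3 to 36.9), against 25.7% (23.8 to 27.7). Span was not held equal here. Its median was 1446 bp against 1270 bp elsewhere with a neighbour, and 1236 against 1128 bp without one. The intervals for pairs without a neighbour overlapped. With the number of neighbours added to span and height, the share found elsewhere was 35.6% for chromosome 3, still below its interval. For chromosome 4 it was 20.04%, just inside the interval of 6.42 to 20.2, against 21.1% without neighbours. The observed share of 12.1% (12 of 99 pairs) was below both values. Whether neighbours account for the difference was not tested.

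Among windows of 1 Mb on chromosome 3 with 15 or more pairs, the highest share was from 134000001 to 135000000, with 13 of 19 pairs displaced (68.4%, 43.4 to 87.4), against 43.2% outside the window at the same span and height. The interval does not allow for the window having been picked for its share. It also treats pairs as independent, although 5 of the displaced pairs lay within 29.4 kb. From 194000001 to 195000000, 25 of 39 pairs were displaced (64.1%, 47.2 to 78.8), and from 128000001 to 129000000, 23 of 36 (63.9%, 46.2 to 79.2). At the same span and height the share outside these windows was 44.4 and 48.9%, and the interval of the second included its value. The adjoining window from 127000001 to 128000000, with 36 pairs as well, had 11 displaced (30.6%, 16.3 to 48.1). The share outside it at the same span and height was 43.9%, which that interval included. In the 385 pairs of chromosome 3 outside windows of 15 or more pairs, 37.7% (32.8 to 42.7) were displaced. In such windows the share was 47.7% (42.3 to 53.1). On the other chromosomes the shares were 29.1% (27.7 to 30.5) outside such windows and 36.5% (32.3 to 40.8) in them. Span differed too, with medians on chromosome 3 of 1273 bp outside such windows and 1493.5 bp in them. On the other chromosomes these medians were 1190 and 1310 bp. Of 42 such windows in all, 15 were on chromosome 3. Displaced pairs were the majority in 7 of the 42, 5 of them on chromosome 3.

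Most displaced pairs were not close to another displaced pair, although 297 were. Joined where they lay within 10 kb of each other, they formed 1576 groups, of which 1447 held 1 pair and 28 held 3 or more, 10 of the latter on chromosome 3. The largest had 5 pairs each. In that on chromosome 3 from 134026731 to 134056140, the XPD summit was at the higher coordinate in all 5, by 284 to 816 bp, and these were all the mutual pairs in the interval. The other, on chromosome 1 from 17015544 to 17041059, had it so in 2 of 5. On chromosome 2 from 91799874 to 91822038, 4 displaced pairs had lower summits of 20 to 25 fragments, high for such pairs, and 1 of them held the widest peak of the set, an XPD peak of 8944 bp. These groups were picked after their values were seen. Coincident pairs and all mutual pairs were not grouped in this way, so the counts of groups have no background. Another peak of either list had its summit within 10 kb in 67.14% of displaced and 57.24% of coincident pairs. At equal span these shares were 66.99 and 63.19%. Whether chromosome 3 held more groups than the density of its peaks would give was not tested.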

How the data were processed

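ChIP libraries of XPB and XPD from HT1080 cells, 1 each, were analysed, and the input has no list used here. The submitters' processing notes name hg19, Bowtie 0.12.7 and MACS 1.4. Other settings and the control are not given in the sources used here. The deposited score was read as -10 times the log10 of the p-value and the deposited summit signal as the fragment pileup height; both readings rest on the usual MACS layout. The protocol text names an antibody against another protein (CSB), and the antibody fields were followed.

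Peaks overlapping by at least 1 bp were paired as each other's largest overlap, and a tie went to the nearer summit. All peaks of both lists entered the pairing, and no regions were removed as possible artefacts. Starts are 1-based. Medians of coincident pairs were weighted over 250 bp bins of union span. Shares carry exact (Clopper-Pearson) 95% intervals. Intervals on medians come from order statistics, and those on ratios and weighted differences treat the coincident value as fixed. Counting intervals on height ratios are exact binomial. The expected share of a chromosome or window used 20 classes of span and lower height on the remaining pairs. The pairing was tested on simulated data.

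Named pairs followed a rule: the 10 highest lower summits, 5 highest lower scores, 5 largest distances, 5 highest lower summits with both peaks under 1000 bp, 3 pairs on each side of the threshold (the first of each is given), and 3 height ratios in each direction with heights of at least 20. The pairs and rules were chosen with earlier results of these data known. Genes, start sites and motifs were not analysed, for want of a genome of that build here. Python 3.11.15, numpy 2.4.6, pandas 2.3.3, scipy 1.17.1 and matplotlib 3.10.9 were used.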

Additional observations from a re-analysis of the deposited data

How the results depend on the processing

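Of 81 alternatives over 10 results, 47 left the value within its interval or, for the number of pairs, within 1.5 times. The number of displaced pairs, 1744, was 843 with a threshold of 500 bp, 760 with both scores at 200 or more and 255 at 300 or more. Their percent of pairs, 31.5, was 27.67 at 50% reciprocal overlap, 34.31 over every overlapping pair, 41.33 over 150 bp, 15.23 over 500 bp, 27.72 and 24.06 at scores of 200 and 300, 29.87 without peaks of 2000 bp or more and 29.86 without chromosome 3. The median distance, 489 bp, was 438 at 50% overlap, 531.50 over every pair, 521.50 at scores of 200 and 468 without wide peaks. The XPB height ratio was 0.6875 against pairs within 50 bp and likewise 0.6875 over 500 bp, and 0.7222 at scores of 200; the XPD height ratio stayed from 0.750 to 0.800. The XPB score ratio was 0.8595 unweighted, 0.7667 against pairs within 250 bp, 0.6966 over 500 bp and 0.8070 at scores of 200. It was 0.7662 without the tallest 1% of summits and 0.9609 with the lower height held in classes. The XPD score ratio was 0.9134 unweighted, 0.7692 and 0.8209 against pairs within 50 and 250 bp, and 0.7331 over 500 bp. It was 0.8329 without the tallest 1% and 0.9737 with the lower height held in classes. The difference in wide peaks turned to 6.913 unweighted and to 0.7904 by mean peak width, and was -3.943 over 500 bp. Chromosome 3 had 37.66% outside dense windows. Lower height held in classes, dense windows and pairs with another summit within 100 bp were chosen after seeing the data. The cause of these changes was not tested. The 3 alternatives on start sites and G-quadruplexes were not run. No paired analysis was possible because each antibody has 1 library.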

Other observations

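The 988 pairs with summits over 100 and up to 250 bp apart resembled the displaced pairs in height and the coincident pairs in width. Their median heights were 12 fragments for XPB and 13 for XPD, against 11 and 12 in displaced and 15 and 16 in coincident pairs. Their median union span was 1125.5 bp, against 1450 and 1127 bp.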
